A study of Homo sapiens with 4 samples.

Results

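Metallothioneins, the zinc-sensing transcription factor MTF1 and 4 zinc transporters were examined in MOLM-14 cells, a human acute myeloid leukemia line that carries an internal duplication of the receptor FLT3 and a fusion of KMT2A. The 10 genes were found by matching the Entrez gene number of each array feature to their symbols. All 10 had a feature, out of 24241 genes with a symbol on the array. They were selected on the rapamycin minus control differences of these same arrays, whose results were already known, so the differences of these 10 genes between the groups are given as a description and were not tested. Expression was measured on 4 arrays, 2 from control cultures and 2 from cultures given 10 nM rapamycin (RAPA in the labels) for 24 hours. The growth and treatment protocols of all 4 arrays describe cells transduced with a doxycycline-inducible shRNA, either scrambled or anti-Pim2, and kept for 72 hours with 200 ng/ml doxycycline. The agent labels do not mention a hairpin, and which hairpin, if any, each culture carried is not given. Nothing in the labels says that the replicates came from separate cultures beyond the words biological replicates in the design, so a p-value here reflects array-to-array spread that could be partly technical.

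Metallothioneins are small proteins rich in cysteine that bind zinc and copper ions and buffer their free concentration in the cytosol. When free zinc rises, the zinc fingers of MTF1 bind it, and MTF1 then occupies short metal response elements in the promoters of the metallothionein genes and of SLC30A1. SLC30 proteins move zinc out of the cytosol, across the plasma membrane or into organelles, and SLC39 proteins move it in. Metallothionein genes are also induced by glucocorticoids, by heavy metals and in inflammation, and rapamycin inhibits mTORC1, the kinase complex that couples nutrient supply to growth.

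The metal response element core was searched in promoter sequence, which was not used to pick the genes. The letters were TGCACNC and TGCGCNC on both strands, in windows of 250 bases before to 50 bases after the RefSeq start (GRCh38.p14). A window was found for 7 of the 10 genes, and MT1E, MT1F and MT1G had none in the table. The 250 bases before the start are shown for MT2A, MT1X and SLC30A1, whose signal was lower with rapamycin, and for MT1H, which was close to the bottom of the array's range. The cores are in capitals, on either strand, and each sequence runs 5′ to 3′ on its gene's own strand. The MT2A sequence is chr16:56608334-56608583 (plus strand), that of MT1X is chr16:56682220-56682469 (plus), that of MT1H is chr16:56669564-56669813 (plus) and that of SLC30A1 is chr1:211579162-211579411 (minus).
MT2A: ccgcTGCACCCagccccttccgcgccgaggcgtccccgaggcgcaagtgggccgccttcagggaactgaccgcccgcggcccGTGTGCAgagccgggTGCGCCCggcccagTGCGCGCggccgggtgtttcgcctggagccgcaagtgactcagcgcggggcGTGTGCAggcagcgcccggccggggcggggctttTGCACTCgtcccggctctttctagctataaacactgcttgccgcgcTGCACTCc
MT1X: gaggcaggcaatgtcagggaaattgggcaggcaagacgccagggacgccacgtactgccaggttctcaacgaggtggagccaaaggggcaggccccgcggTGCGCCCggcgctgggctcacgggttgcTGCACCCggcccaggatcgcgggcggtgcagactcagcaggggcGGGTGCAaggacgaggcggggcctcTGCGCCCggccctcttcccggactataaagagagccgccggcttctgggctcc
MT1H: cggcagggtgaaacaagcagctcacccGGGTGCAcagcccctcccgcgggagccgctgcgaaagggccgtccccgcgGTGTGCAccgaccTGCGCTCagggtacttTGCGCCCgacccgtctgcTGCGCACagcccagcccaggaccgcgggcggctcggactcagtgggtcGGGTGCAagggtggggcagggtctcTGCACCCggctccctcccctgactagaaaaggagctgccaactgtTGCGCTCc
SLC30A1: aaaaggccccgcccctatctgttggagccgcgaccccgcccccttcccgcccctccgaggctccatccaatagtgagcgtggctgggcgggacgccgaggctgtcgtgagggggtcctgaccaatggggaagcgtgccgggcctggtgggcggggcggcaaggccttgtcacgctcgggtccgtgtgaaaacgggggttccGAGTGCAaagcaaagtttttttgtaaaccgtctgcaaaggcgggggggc

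MT2A, the metallothionein whose promoter is best studied in human cells, held 8 cores in its whole window, 7 of them in the bases shown and the other after the start. Of 35116 promoter windows in the table, 0.0199% (7 windows) held 8 or more. MT1H also held 8. MT1X held 4, a number reached by 0.601% of windows. SLC30A1 held 2, one of them after the start, and 8.6% of windows held 2 or more. On the gene's own strand a core began 53 bases before the start in MT1X, MT1H and MT1B, and 54 bases before it in MT2A. The letters TATAAA lay within the 50 bases before the start in MT2A, MT1X, MT1B and MT4, as they did in 2.63% of all windows. SLC30A5 and MTF1 had no match in their windows. SLC39A1 and SLC39A10 each had 1 core in 1 of their windows, and 29.6% of all windows held at least 1. None of the matches overlapped each other in MT2A, MT1X, MT1H or SLC30A1. A match to these letters is a description of the sequence and does not show that MTF1 binds there in MOLM-14 cells.

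**Figure D1:**
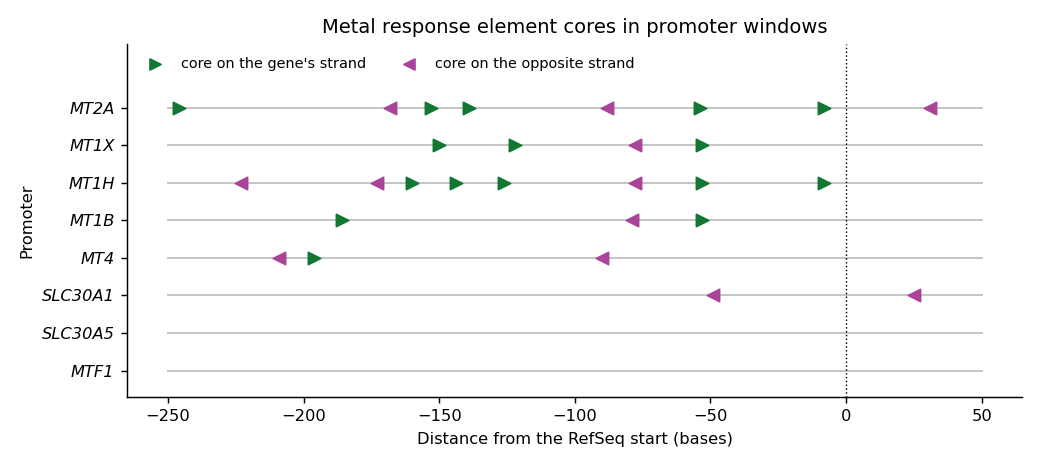
Positions of the metal response element cores (triangles, at the first base of each match) relative to the RefSeq start in bases, 1 row for each promoter window. MT2A and MT1H each have 8 cores, MT1X has 4, SLC30A1 has 2, and the windows of SLC30A5 and MTF1 have none.

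All 5 metallothioneins among the 10 genes gave a lower signal with rapamycin, by 2.20-fold to 3.58-fold, and so did the zinc exporter SLC30A1, by 1.82-fold. The zinc importer SLC39A10 was slightly higher, and MTF1, SLC30A5 and SLC39A1 had control and rapamycin arrays that overlapped. Values are log2 signals after robust multi-array averaging (RMA), in which a difference of 1 unit is a factor of 2 in signal. They can be set side by side between arrays for one gene, but not between genes. All 10 genes passed the filter on low signal, a mean of at least 4.86 log2 units over the 4 arrays. In the limma fit over 14635 genes, 6 of the 10 were called lower at an adjusted p under 0.05, where 0.861% of all genes were, and 0 were called higher, where 0.417% were. Since the choice of the genes used this contrast, nothing is read from these counts. Both rapamycin arrays lay below both control arrays for 6 of the 10 genes and above them for 1, against 21.8% and 24.9% of all genes tested. The median log2 fold change of the 10 genes was -0.999, and that of all genes tested was 0.01.

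MT1G, a metallothionein isoform of the cluster on chromosome 16, read 10.30 and 10.61 log2 units on the control arrays and 8.62 and 8.61 with rapamycin. The control arrays stood apart from each other by more than the rapamycin arrays did, and both lay well above them. Its mean was 10.45 ± 0.22 in controls and 8.61 ± 0.01 with rapamycin (SD, n = 2), a log2 fold change of -1.84 with a standard error (SE) of 0.10 from the fit. Among all genes tested only 1 had a lower log2 fold change, since MT1G ranked 2 from the lowest.

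MT2A, the major metallothionein of many human cell types, read 11.96 and 12.13 in controls and 10.43 and 10.64 with rapamycin. In each group replicate 2 was the higher array, and the groups did not overlap. The log2 fold change was -1.51 (SE 0.09), or 2.84-fold lower. MT1F read 10.17 and 10.19 in controls and 8.70 and 8.74 with rapamycin. Its replicates were close together in both groups, with an SD of 0.02 in controls and 0.03 with rapamycin (n = 2). MT1F differed by -1.46 on the log2 scale (SE 0.07), or 2.75-fold.

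MT1E read 6.92 and 6.90 in controls and 5.45 and 5.69 with rapamycin. The rapamycin arrays were the more spread pair here, and both lay at least 1.22 log2 units under the controls. The log2 fold change was -1.34 (SE 0.13), or 2.54-fold lower. MT1X, the isoform with the smallest difference of the 5, read 12.10 and 12.15 in controls and 11.03 and 10.95 with rapamycin. It differed by -1.13 (SE 0.06), or 2.20-fold, and even its closest control and rapamycin arrays stood 2.10-fold apart. Whether the sizes of the metallothionein differences differ from each other was not tested.

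**Figure D2:**
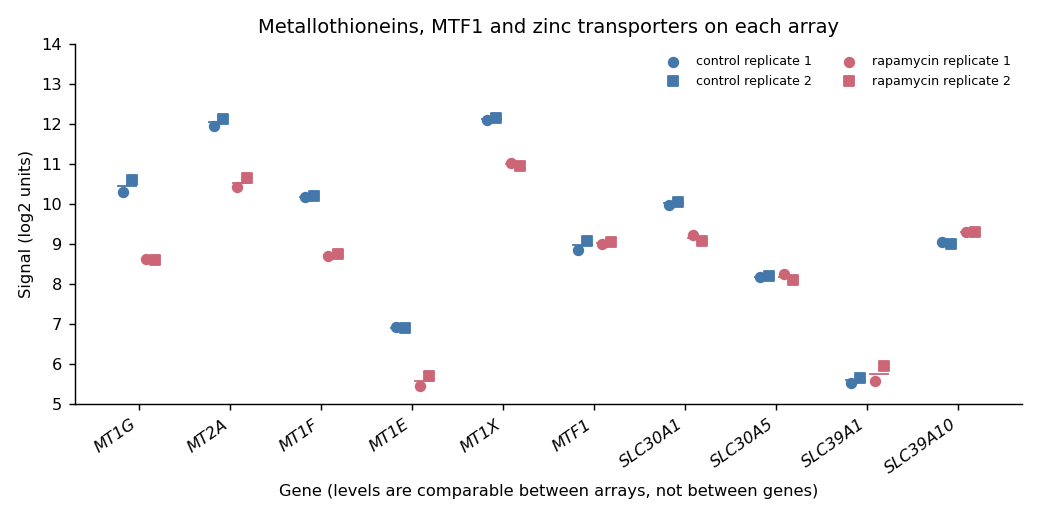
Signal of each of the 10 genes on each array (log2 units), with circles for replicate 1, squares for replicate 2 and short lines at the group means (n = 2). Controls and rapamycin arrays are apart for the 5 metallothioneins, SLC30A1 and SLC39A10, and overlap for MTF1, SLC30A5 and SLC39A1.

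The differences between replicate arrays were not used to pick the genes. Between the control arrays, 4 of the 5 metallothioneins were higher on replicate 2, where 51.9% of all genes tested were, and the widest gap was 0.31 log2 units, for MT1G. Between the rapamycin arrays, 3 of the 5 were higher on replicate 2, against 48.3% of all genes, and the widest gap was 0.23, for MT1E. The median gap of all genes tested was 0.09 log2 units in controls and 0.13 with rapamycin. The smallest distance from any rapamycin array to any control array among these 5 was 1.07 log2 units, that of MT1X. MT1G was thus the least even of the 5 between control arrays, and MT1E between rapamycin arrays.

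SLC30A1 (ZnT1), which exports zinc across the plasma membrane and is itself an MTF1 target, read 9.98 and 10.05 in controls and 9.23 and 9.08 with rapamycin. Both rapamycin arrays were lower than both controls, and the closest pair stood 1.69-fold apart. The log2 fold change was -0.86 (SE 0.08), ranking 30 from the lowest of all genes. SLC30A5 (ZnT5), which loads zinc into the early secretory pathway, read 8.17 and 8.19 in controls and 8.24 and 8.10 with rapamycin. The rapamycin arrays of SLC30A5 lay on either side of the controls, and the difference was -0.01 (SE 0.09).

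SLC39A10 (ZIP10), a plasma membrane importer that is repressed by MTF1 in mouse and zebrafish, read 9.05 and 9.01 in controls and 9.31 and 9.30 with rapamycin. The groups did not overlap, and the gap between the closest arrays was 0.25 log2 units. Its log2 fold change was 0.27 (SE 0.08), or 1.21-fold higher. SLC39A1 (ZIP1), another plasma membrane importer, read 5.52 and 5.66 in controls and 5.57 and 5.94 with rapamycin. Rapamycin replicate 2 was the highest of the 4 arrays while replicate 1 lay between the controls, and the difference of 0.16 (SE 0.16) turned to -0.02 without rapamycin replicate 2. MTF1 read 8.85 and 9.08 in controls and 9.01 and 9.06 with rapamycin. Both rapamycin arrays lay between the 2 control arrays, and the difference was 0.07 (SE 0.09), or -0.05 without control replicate 1.

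The rest of the 3 families was measured by 28 further genes, of which 17 passed the filter on low signal. In the limma fit, 0 of these 17 were called in either direction, with 2 lower and 0 higher at an unadjusted p under 0.05. The share of all genes tested under this unadjusted threshold was not counted, so nothing is read from such counts here or below. The median log2 fold change of the 17 was 0.02, beside 0.01 over all genes tested. Without rapamycin replicate 1 the count called lower was 3: SLC30A9, SLC39A9 and MT1M. In such a fit the rapamycin group is 1 array, assumed to vary like the controls, so that each gene's own spread comes from the 2 control arrays. MT1M reached the filter minimum only when a rapamycin array, where it is low, was left out, so its calls in those fits follow from the filter and nothing is read from them. Over all genes, 187 of 14635 (1.28%) were called with the 4 arrays, 126 lower and 61 higher, while 857 were lower and 443 higher without rapamycin replicate 1. Without control replicate 2, 47 were lower and 29 higher, and without rapamycin replicate 2, 109 were higher.

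MT1M, a metallothionein isoform that was not among the 10 genes, also had a lower signal with rapamycin. It read 5.51 and 5.23 in controls and 4.08 and 4.24 with rapamycin, and its mean over the 4 arrays was 4.76, under the filter minimum. Both rapamycin arrays lay under both controls. In the limma fit with no filter, over 24241 genes of which 0.177% were called lower, MT1M fell 2.31-fold (adjusted p = 0.0313), which is -1.21 on the log2 scale with an SE of 0.15. With no filter, the limma call was lost when either control array was left out, the adjusted p being 0.179 with control replicate 1 out and 0.116 with control replicate 2 out. It was kept when either rapamycin array was left out, the adjusted p being 0.0245 with rapamycin replicate 1 out and 0.0346 with rapamycin replicate 2 out. Metallothionein transcripts are nearly alike in sequence, so the share of each copy in the value of MT1M, and in those of the other isoforms, is uncertain.

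The other metallothionein features were low or did not pass the test. MT1B, MT1H and the pseudogenes MT1JP and MT1L were under the filter minimum on every array, between 3.01 and 3.72 log2 units. The MT1H window shown above holds as many cores as that of MT2A. MT3, a brain isoform, read 5.22 and 5.07 in controls and 5.02 and 5.17 with rapamycin (adjusted p = 0.900 by limma). MT4, an isoform of squamous epithelia, read 6.84 and 6.42 in controls and 6.72 and 6.59 with rapamycin, so its arrays overlapped (log2 fold change 0.03, adjusted p = 0.962 by limma). The pseudogene MT1DP ran from 4.64 to 5.46 with both extremes on replicate 2 arrays (log2 fold change 0.17, adjusted p = 0.799 by limma). MT1A, MT1HL1 and 5 listed pseudogenes were not analysed here.

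Along chromosome 16 in the RefSeq gene order, the metallothionein genes run from MT4 to MT1X, with BBS2 on one side and NUP93 on the other, and 3 non-coding genes that were not analysed here lie among them. Taking the metallothioneins alone, MT4 and MT3 come first, then MT2A, MT1L, MT1E, MT1M, MT1JP, MT1A, MT1DP, MT1CP, MT1B, MT1F, MT1G, MT1H, MT1IP and MT1X. The isoforms with a lower signal were not a single unbroken run, since features under the filter minimum, not called or not analysed lay among them. MT1L, MT1JP, MT1B and MT1H read between 3.01 and 3.72 log2 units, in controls too. A fall could hardly show in them. Whether the difference skips these low features therefore cannot be told. The pseudogene MT1DP passed the filter, with a log2 fold change of 0.17 and a 95% interval half-width of 0.56. That interval does not reach -1.13, the value of MT1X. The mean of MT1DP, 5.05 log2 units, was close to the filter minimum, and its difference from the other isoforms was not tested. Of 8 measured neighbours of the cluster that passed the filter, 0 were called (limma, with 1 lower at an unadjusted p under 0.05), and their median log2 fold change was -0.04. OGFOD1, an oxygenase that modifies a ribosomal protein, read 8.87 and 8.92 in controls and 8.94 and 8.95 with rapamycin, a difference of 0.05 (95% interval half-width 0.17). NUDT21, a subunit of the cleavage factor that sets polyadenylation sites, differed by -0.05 (half-width 0.17). BBS2, a component of a ciliary cargo complex that is named after its value was seen, differed by -0.37 with the 4 arrays (adjusted p = 0.175 by limma) and was called lower only without rapamycin replicate 1, with a single rapamycin array left.

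**Figure D3:**
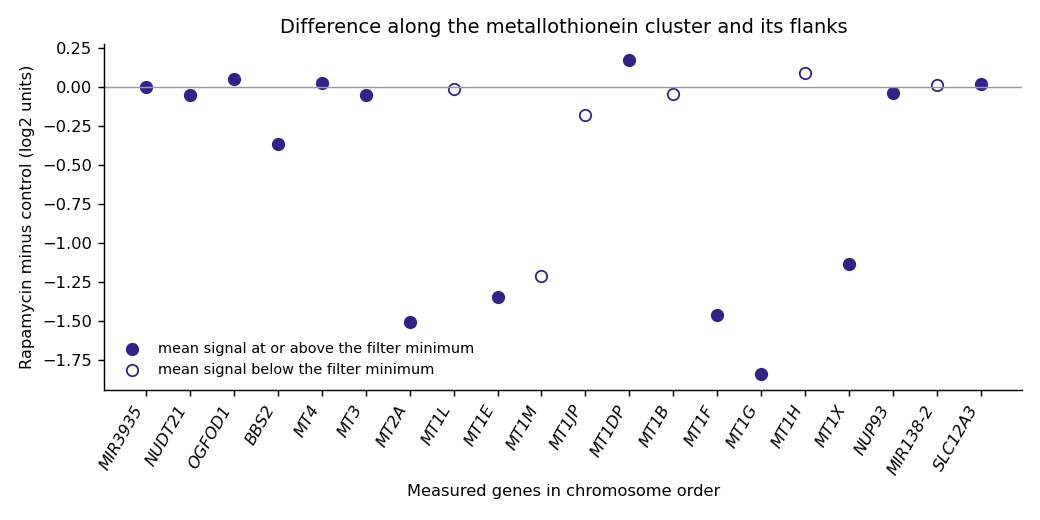
Difference between the rapamycin and control means (log2 units) for the measured genes in chromosome order across the metallothionein cluster, filled where the mean signal reached the filter minimum and open where it did not. MT2A, MT1E, MT1M, MT1F, MT1G and MT1X lie between -1.13 and -1.84, and the other genes shown lie between -0.37 and 0.17.

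None of the zinc transporters outside the 10 genes was called with the 4 arrays. Of the 4 further SLC30 exporters past the filter, 0 were called, with log2 fold changes from -0.22 to 0.02. SLC30A9, a mitochondrial zinc exporter, had the lowest of them, reading 9.36 and 9.38 in controls and 9.28 and 9.03 with rapamycin (adjusted p = 0.306 by limma). SLC30A6 (-0.02, half-width 0.19) and SLC30A7 (0.02, half-width 0.22), which load zinc into the secretory pathway, had intervals that do not reach -0.86, the value of SLC30A1. SLC30A1 was picked on this contrast, and its difference from the other exporters was not tested. SLC30A2, SLC30A4, SLC30A8 and SLC30A10 were below the filter.

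Of the 10 further SLC39 importers past the filter, 0 were called, and their median log2 fold change was 0.11. SLC39A9, which acts at the Golgi and the cell surface, read 8.07 and 8.09 in controls and 7.87 and 7.75 with rapamycin, with both rapamycin arrays lower (log2 fold change -0.28, adjusted p = 0.192 by limma). SLC39A14, an importer of zinc, iron and manganese, read 8.39 and 8.40 in controls and 8.48 and 8.63 with rapamycin, all higher (0.16, adjusted p = 0.438). SLC39A8, which carries zinc and manganese and is induced in activated monocytes, differed by 0.10 (half-width 0.17). SLC39A6, the closest relative of SLC39A10, differed by -0.13 (half-width 0.18), and SLC39A7, which releases zinc from the endoplasmic reticulum, by -0.11 (half-width 0.24). SLC39A6 and SLC39A10 thus had opposite signs, and the difference between them was not tested.

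**Figure D4:**
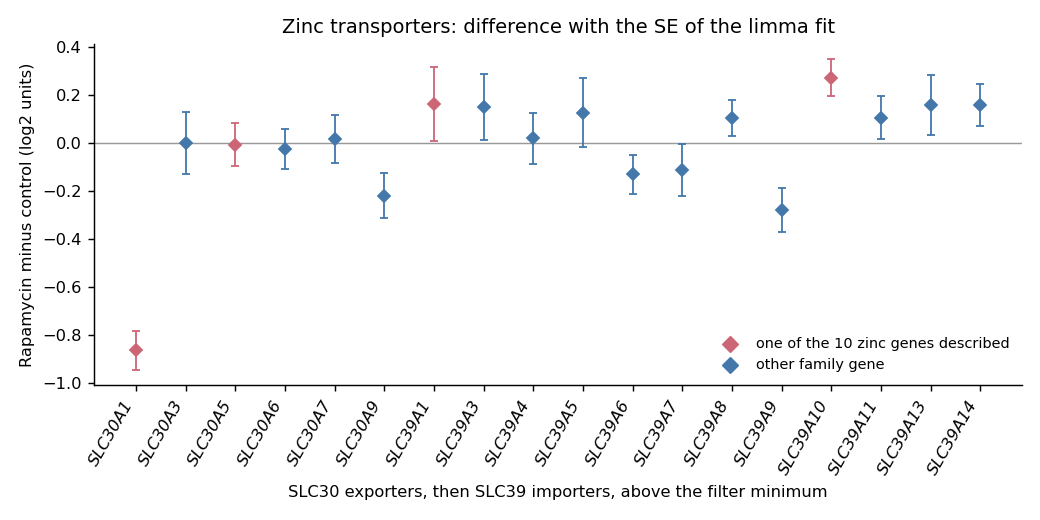
Rapamycin minus control (log2 units) for the 18 zinc transporter genes past the filter, with bars of 1 SE of the limma fit on each side. SLC30A1 stands at -0.86 and SLC39A10 at 0.27, and the others lie between -0.28 and 0.16.

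No gene of copper or iron handling passed the test with the 4 arrays. Of 12 copper genes tested, 0 were called, with 1 lower and 1 higher at an unadjusted p under 0.05, and the median was 0.01. SLC31A1, the high-affinity copper importer, read 10.37 and 10.41 in controls and 10.11 and 10.16 with rapamycin (log2 fold change -0.26, adjusted p = 0.117 by limma). SOD1, the copper and zinc superoxide dismutase, differed by -0.01 (half-width 0.17). Of 11 iron genes tested, 0 were called, with 1 lower and 0 higher at an unadjusted p under 0.05. FTL, the ferritin light chain, differed by -0.21 (adjusted p = 0.153 by limma) and PCBP2, an iron chaperone that also binds RNA, by 0.11 (adjusted p = 0.401). Without rapamycin replicate 1, 1 copper gene was called lower, COX11, which is named after its value was seen. GCLC and SELENOH, genes reported to depend on MTF1 outside these families (SELENOH in mouse), differed by 0.10 (half-width 0.23) and -0.02 (half-width 0.26), with 0 called of the 2 tested and 0 at an unadjusted p under 0.05.

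Heat shock and oxidative stress genes share inducers such as heavy metals with the metallothioneins. Both lists, like the other gene lists here, were drawn up with earlier results of these data known. Their counts and p-values are therefore a description and give no independent support. Of 11 heat shock genes tested, 2 fell and 0 rose, where 0.861% of all genes tested fell. At an unadjusted p under 0.05, 4 were lower and 0 higher, with no share of all genes counted beside them. Both rapamycin arrays were below both controls for 9 of the 11, against 21.8% of all genes. HSPA1B, an inducible HSP70, read 10.75 and 10.83 in controls and 8.59 and 8.46 with rapamycin (4.79-fold lower, adjusted p = 3.46e-06 by limma). DNAJB1, its HSP40 partner, read 8.79 and 9.08 in controls and 7.89 and 7.94 with rapamycin (2.03-fold lower, adjusted p = 0.00399 by limma). Without the mean-variance trend DNAJB1 was not called (adjusted p = 0.0515 by limma). The list's median log2 fold change was -0.11. Of 12 targets of NFE2L2, the transcription factor of the oxidative stress response, 2 fell and 0 rose, at a median of 0.05. ME1, the cytosolic malic enzyme, fell 1.90-fold (adjusted p = 0.0135 by limma). SLC7A11, the cystine importer, fell 1.36-fold (adjusted p = 0.0381 by limma). That call was lost when either control array was left out, its adjusted p being 0.156 with control replicate 1 out and 0.303 with control replicate 2 out, and it was also lost with no filter (0.0868) or without the trend (0.156).

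Of 11 glucocorticoid-responsive genes tested, 0 were called by limma, and the median log2 fold change was -0.28. At an unadjusted p under 0.05, 6 were lower and 1 higher. No share of all genes was counted beside these, so nothing is read from them. Both rapamycin arrays were below both controls for 8 of the 11, where 21.8% of all genes were. NFKBIA, the inhibitor of NF-kB, differed by -0.28 (adjusted p = 0.141 by limma), and FKBP5, a cochaperone of the glucocorticoid receptor, by 0.00 (half-width 0.19). With the single rapamycin array that is left without replicate 1, 3 of them were called lower, NFKBIA, ERRFI1 and SAP30, of which ERRFI1 and SAP30 are named after their values were seen. Over these 7 lists together, 4 genes were called lower and 0 higher with the 4 arrays, and 11 lower and 1 higher without rapamycin replicate 1.

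**Figure D5:**
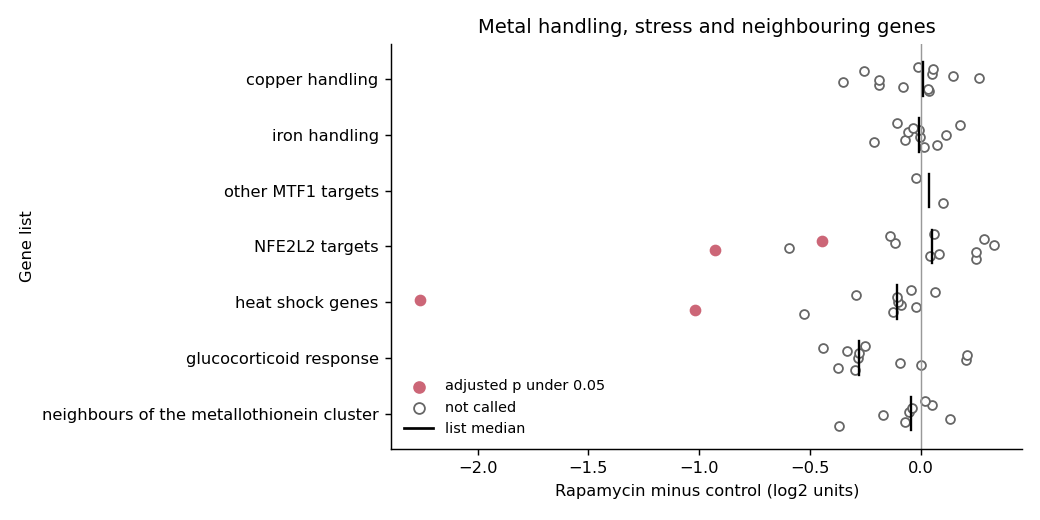
Rapamycin minus control (log2 units) for each gene past the filter in 7 lists, 1 point for each gene, filled where the adjusted p was under 0.05, with a line at the list median. The 4 called genes are 2 heat shock genes at -2.26 and -1.02 and 2 NFE2L2 targets at -0.93 and -0.44.

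The 5 genes outside the metallothionein list whose values followed the mean metallothionein profile most closely were S100A8, AMZ2P1, RGS2, ARRDC3 and SAT1. Closeness was the Euclidean distance between values centred on each gene's own mean over the 4 arrays, and ran from 0.24 log2 units for S100A8 to 0.46 for SAT1. The 5 metallothioneins themselves lay between 0.07 and 0.42 from their mean profile. S100A8, a calcium- and zinc-binding protein of myeloid cells, read 8.09 and 8.08 in controls and 6.34 and 6.48 with rapamycin. SAT1, which acetylates polyamines for breakdown, read 7.76 and 8.08 in controls and 6.92 and 6.84 with rapamycin. All of these distances rest on the same 4 arrays in 2 groups. The mean profile is mostly the difference between the groups, on which the 5 metallothioneins were picked. Genes with a fall of similar size are near it by construction, so nothing is read from the list about shared regulation.

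Metal response element cores were also counted for 11103 tested genes outside the 3 families. Genes with 0 cores had a median log2 fold change of 0.01 (6222 genes), and genes with 4 or more had 0.05 (119 genes). Of those with 0 cores 0.884% were called lower, and 3 of those with 4 or more cores, or 2.52%. The 3 were INSIG1, LDHA and TMEM116, named after their values were seen. The share called lower was 0.651% with 1 core and 0.759% with 2 cores, both under that of genes with 0 cores. Genes with 3 cores had 0.568% called lower and the same share called higher. These shares are a description and were not tested.

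Array medians ran from 5.38 to 5.45 log2 units, and the correlation over all features was 0.996 between the controls, 0.994 between the rapamycin arrays and 0.992 to 0.994 between groups. Of 9 myeloid markers measured, 8 passed the filter and 0 were called, with FLT3, the receptor mutated in this line, at 10.53 in controls and 10.78 with rapamycin, and the monocyte marker CD14 below the filter at a mean of 3.80. Of 11 markers of lymphoid, erythroid, fibroblast, epithelial and liver cells, 4 passed the filter, the highest KRT8 at 6.94, and 0 were called. KRT8, an epithelial keratin, read 6.80 and 6.92 in controls and 6.46 and 7.60 with rapamycin, and without rapamycin replicate 1 it was called higher and the myeloid gene MEIS1 lower, both named after their values were seen. The median signal of the 11 lymphoid, erythroid, fibroblast, epithelial and liver markers was 4.11 and 4.16 log2 units in controls. With rapamycin it was 3.99 and 4.06. In bulk RNA, fewer cells with a transcript and less of it in each cell cannot be told apart.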

How the data were processed

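Total RNA of 4 MOLM-14 arrays was amplified and labelled with a whole-transcript kit, per the labels' protocols. The deposited values are log2 signals, 1 per Entrez gene number, and the submitters' processing notes list the tools RMA and Partek without version or role. The array annotation's genome build is not given in the sources used here. The 25582 features gave 24244 with 1 symbol, 0 with several and 1338 with none. The feature with the highest mean stood for each of 3 symbols with several.

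Features with a mean below the 40th percentile (4.86 log2 units) were left out. The groups, from the agent labels, entered a limma fit (version 3.58.1, R 4.3.3; lmFit, eBayes with a mean-variance trend, two-sided tests). Benjamini-Hochberg adjustment ran over 14635 genes, with calls under 0.05. The code was tested on simulated data. The median 95% half-width was 0.27 log2 units, limited by the number of arrays. Promoter sequences are from RefSeq (GRCh38.p14). Named outside the families were up to 4 called genes of each list, or, with fewer than 2 called, the 2 uncalled genes with the highest mean, and the 5 nearest profiles; other genes are marked as named after their values were seen. The 10 genes, the 12 lists and the tests were chosen with earlier results of these data known. Alternatives covered the filter, scaling, moderation, replicate block, features per gene, gene class and each array left out.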

Additional observations from a re-analysis of the deposited data

How the results depend on the processing

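The log2 fold changes of the 5 metallothioneins, SLC30A1 and SLC39A10 kept their direction under all 13 alternative settings of the fit. Changes of filter, moderation, block, features per gene or gene class left these differences of means as they were. Leaving out 1 array cannot reverse groups that do not overlap. Only the changes of scaling could have altered a direction, so nothing is read from its being kept. MT1G lay between -1.997 and -1.683, MT2A between -1.61 and -1.40 and MT1F between -1.49 and -1.41. MT1E lay between -1.46 and -1.23 and MT1X between -1.18 and -1.09. SLC30A1 lay between -0.94 and -0.79 and SLC39A10 between 0.24 and 0.32. MTF1 ran from -0.05 to 0.18, SLC30A5 from -0.07 to 0.06 and SLC39A1 from -0.02 to 0.35. Without the mean-variance trend, 5 of the 10 genes were called lower, where 13 of all genes tested were, and SLC30A1 was not called. With an array left out, 1 group is a single array, so counts of the 10 genes are not given for those fits. The 10 genes were picked on this contrast, and nothing is read from how many of them were called.

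Over all genes, 43 were lower and 17 higher with no filter, 13 lower and 4 higher when the trend was dropped, 238 lower with each array centred on its median, and 205 lower and 116 higher with the replicate block. The labels give the groups the same replicate numbers but do not say that a number marks a shared culture, and the correlation of the deviations of same-numbered arrays was -0.03. Leaving out each array in turn gave 47 to 857 lower and 29 to 443 higher. For the other family genes, 1 was called lower with no filter (MT1M) and 0 to 3 without each array in turn. For the 7 context lists together, 2 were lower without the trend, 3 to 11 without each array in turn, and 0 to 1 higher. The no-filter fits of MT1M with an array left out were chosen after seeing the data. Cores were found in 5 of the 7 genes with a window, where 29.6% of all windows held at least 1. With windows from 150 bases before the start they were found in 4 (22.6% of all windows), and with the looser TGCNCNC in 6 (55.9%). A gene was counted if any of its windows held a core, and SLC39A1 and SLC39A10 have 2 windows each. The percentages are of single windows, so the 2 measures are not alike. SLC39A1 missed the 60th percentile filter. The cause of these shifts was not tested.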
